A study of Homo sapiens with 12 samples.

Results

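The enzymes described here make the activated sugars from which cells build glycoproteins, proteoglycans and sialic acid. They are the products of 9 genes, taken by name as the hexosamine and nucleotide sugar enzymes GFPT1, GFPT2, GNPNAT1, PGM3, UAP1, UGDH, UGP2, GNE and NANS, and all 9 were found among the 59248 rows of the deposited gene tables through their Ensembl identifiers. Transcriptomes of SJSA-1 cells, an established human osteosarcoma line, were compared between 6 libraries of cells stably expressing a scramble shRNA (shNC) and 6 libraries of cells stably expressing an shRNA against the osteoblast transcription factor RUNX2 (sh1). Both groups had been infected with a lentivirus that also carries EGFP and puromycin resistance, and both were kept under puromycin until all cells showed EGFP. One shRNA against RUNX2 was compared with one control, and the sources do not state whether the 6 libraries of each group stem from independent infections or cultures. The p-values therefore measure the spread among these libraries, which may be technical.

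The hexosamine route joins the amino group of glutamine to fructose phosphate from glycolysis. GFPT1 and GFPT2 are the isoenzymes of this entry step, which sets the pace of the route. GNPNAT1 then adds an acetyl group, PGM3 moves the phosphate, and UAP1 couples the sugar to UTP to give UDP-GlcNAc, the donor for N-glycans, hyaluronan and O-GlcNAc on nuclear and cytosolic proteins. UGP2 makes UDP-glucose, and UGDH oxidises it to UDP-glucuronate, which hyaluronan and the linker of sulphated proteoglycans need. GNE turns UDP-GlcNAc towards sialic acid, and NANS condenses the next intermediate to the sialic acid skeleton.

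The total gene count was 15328312 to 19992974 in shNC and 11239638 to 16346022 in sh1, with sh1 replicate 3 as the lowest library (14689309 to 16346022 in the other sh1 libraries). RUNX2 itself was at 35.4 to 46.0 CPM in shNC and at 21.5 to 27.3 in sh1, which is -0.69 ± 0.076 on the log2 scale (standard error; edgeR, adjusted p = 4.6e-06), so the label of each library held for the targeted gene. CPM here means counts scaled to library size with TMM factors, and FPKM also divides by gene length. The amplified genes of this line were abundant (MDM2 60.9 to 93.5 FPKM, CDK4 37.0 to 48.9 FPKM), as were the mesenchymal genes VIM and SPARC, while COL1A2 stayed at or under 0.0798 FPKM. Of the markers of other cell types, CDH1 had no count and PTPRC at most 2 counts in any library, EPCAM at most 3, CD68 at most 7, CDH5 at most 17 and PECAM1 at most 76.

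The promoters of 6 of the 9 genes hold a short string of letters, shown here because the genes that hold it include consecutive steps of the hexosamine route. In the RefSeq table of windows from 250 bases before to 50 bases after each start site (GRCh38.p14), all 9 genes had 1 to 3 windows, 14 in all. The letters GACGTG, the core of the elements bound by the unfolded protein response factors XBP1 and ATF6, were searched on both strands after these same promoters had been read, so the counts describe the windows and test nothing. A match occurred in at least 1 window of 6 of the 9 genes (GFPT1, GNPNAT1, PGM3, UAP1, UGP2 and NANS), against 13.2% of the 11165 tested genes with a window and 7.81% of all 35116 windows. The windows of GFPT2, UGDH and GNE did not hold these letters. The lines give 30 bases around each match, read 5′ to 3′ on the strand that spells GACGTG, with the match in capitals.
GFPT1, chr2:69387389-69387418, plus strand: gctggcggcggcGACGTGgcagtggctcgt
GNPNAT1, chr14:52791562-52791591, plus strand: aaccgcggcccaGACGTGgcagcgccaacg
PGM3, chr6:83193255-83193284, plus strand: ctcagaaccgcaGACGTGgccctgcgtggc
UAP1, chr1:162561537-162561566, plus strand: gctcccggcgctGACGTGtctgggcggtcg
UAP1, chr1:162561859-162561888, plus strand: gccacgcgctcaGACGTGgacacgcgtcgc
UGP2, chr2:63840873-63840902, minus strand: tctggccaatgaGACGTGtggaggtggcaa
NANS, chr9:98056680-98056709, plus strand: cgaccgcgggctGACGTGgcggggctggcg

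In GFPT1, GNPNAT1, PGM3 and NANS the match was followed by the same G and C, and in the first UAP1 window and in NANS it was preceded by T, which gives letters shared with the element of the cAMP response factors. Counted from the start site of the window that holds it, the match began at position -179 in GFPT1, -7 in PGM3 and 29 in GNPNAT1. For PGM3 this was the window at chr6:83193216-83193515. The PGM3 window at chr6:83193851-83194150, which spans the outer end of the annotated gene, held no match. The RUNX core TGTGGT, also searched on both strands, was found in windows of GNE and UGP2, 2 of the 9 genes, against 13.4% of the 11165 tested genes. It does not overlap GACGTG, and neither letter string shows that a factor binds.
UGP2, chr2:63841866-63841895, plus strand: aatttaagttcgTGTGGTtttaccttttcc
GNE, chr9:36276959-36276988, plus strand: tctgtaccctagTGTGGTttgaaataatga

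Per length, the last enzyme of the hexosamine route was the most abundant of the 9. UAP1 was at 66.1 to 88.5 FPKM over the 12 libraries (median 77.0), above every other enzyme in every library. GNPNAT1 (25.3 to 34.5 FPKM) and GFPT2 (23.4 to 33.7) followed with overlapping ranges, although GNPNAT1 was the higher in 10 of 12 libraries. GFPT1 came next (13.8 to 18.8) and lay under GFPT2 in all 12 libraries, and it overlapped UGP2 (13.4 to 16.3). The length behind FPKM was 8866 bases for GFPT1 and 4780 bases for GFPT2. Without division by length, the order of these isoenzymes was reversed in the group means. Mean CPM was 159.0 for GFPT1 and 136.2 for GFPT2 in shNC, and 135.9 and 119.0 in sh1. Per length, UGDH (10.1 to 13.3), PGM3 (10.2 to 12.7) and GNE (10.04 to 11.8) could not be ordered beyond their spread. In CPM their ranges were apart, at 75.4 to 92.2 for PGM3, 59.1 to 70.0 for GNE and 40.4 to 53.6 for UGDH. The lengths behind FPKM were 7335 bases for PGM3, 5921 for GNE and 4045 for UGDH, so this order also depends on them. NANS was the lowest, at 7.18 to 8.98 FPKM. All 9 genes were counted well above the filter on low counts, the smallest value being 447 counts for NANS, and within a group the coefficient of variation of FPKM ran from 3.06% (GNPNAT1 in shNC) to 12.9% (GFPT2 in shNC).

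**Figure D1:**
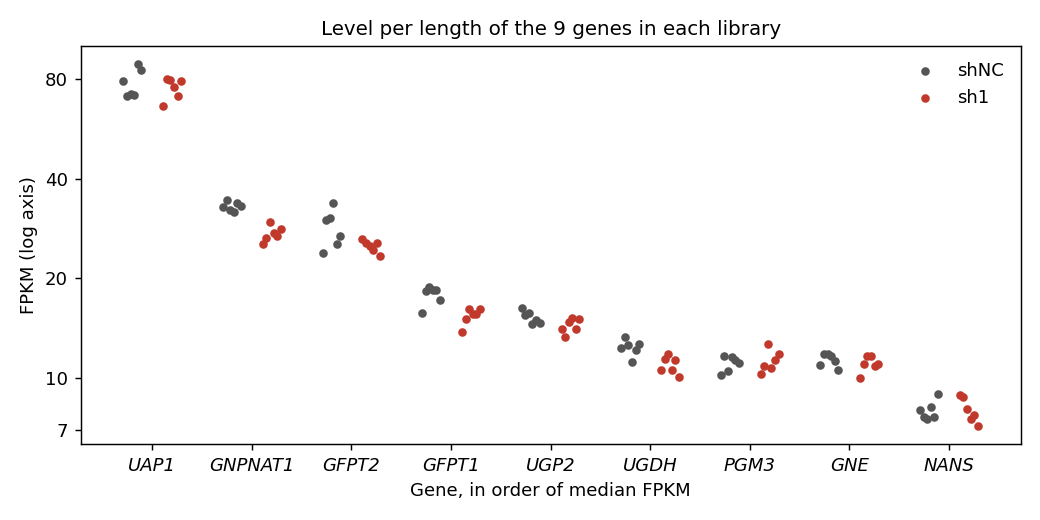
FPKM (log axis) of the 9 genes, in order of their median, in each shNC (grey) and sh1 (red) library, 1 point per library. UAP1 lies between 66.1 and 88.5 FPKM and NANS between 7.18 and 8.98, and shNC and sh1 points overlap in every gene but GNPNAT1.

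Under RUNX2 shRNA, the genes of the entry and acetylation steps of the hexosamine route and UGDH were lower, and no gene of the 9 was higher. At an adjusted p under 0.05 (edgeR's quasi-likelihood test over 16489 genes, Benjamini-Hochberg), GNPNAT1, GFPT1, UGDH and GFPT2 were called lower, 4 of 9, where 13.3% of all genes tested were called lower, 12.8% higher and 26.1% in either direction. The count was 2, GNPNAT1 and GFPT1, without shNC replicate 2 or without sh1 replicates 1, 4 or 6. The count of 0 higher was also 0 at an unadjusted p under 0.05 and with DESeq2 and limma. The fold changes were small, with means in sh1 of 81.7% to 87.6% of those in shNC for the 4 genes, and 8 of the 9 fold changes were negative, against 50.7% of all genes tested. Of these 8, NANS was at -0.0055 on the log2 scale, and it was above 0 with library totals (0.010) and with limma (0.0069 and 0.0075). The median log2 fold change was -0.10 for the 9 genes and -0.0035 for all genes tested. In 2 of the 9 genes, GNPNAT1 and GFPT1, the sh1 libraries did not overlap the shNC libraries in CPM, as in 11.9% of all genes tested. Lower RNA per cell and fewer cells holding the RNA cannot be told apart in such libraries.

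**Figure D2:**
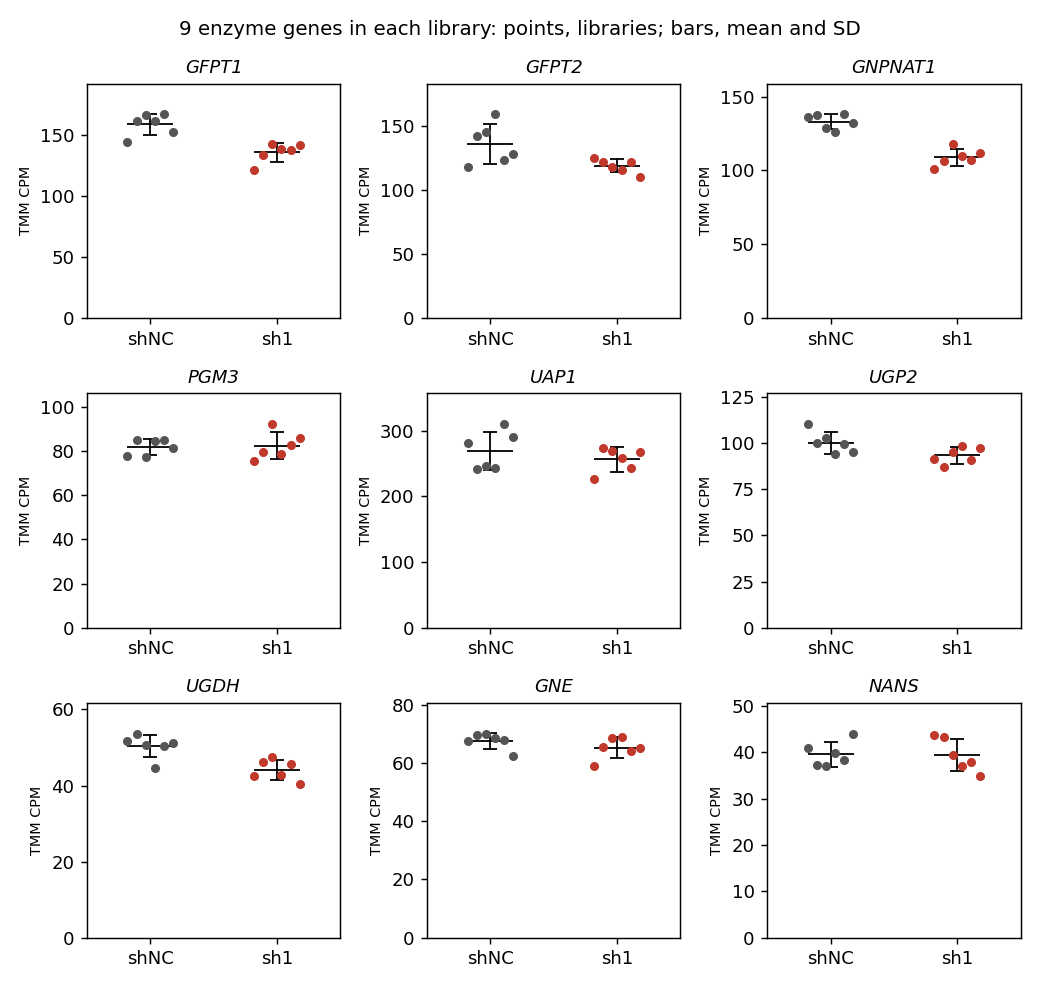
TMM-normalized CPM of the 9 genes in each library, 1 point per library, with the group mean and SD drawn as bars (n = 6). In GNPNAT1 the sh1 points lie between 101.0 and 117.8 and the shNC points between 125.9 and 138.1, without overlap, while in PGM3 the groups overlap (77.1 to 85.0 in shNC and 75.4 to 92.2 in sh1).

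GFPT1, the widely expressed isoenzyme of the entry step (ENSG00000198380, chromosome 2 from 69319780 to 69387250, minus strand, GRCh38), had a lowest, median and highest value of 144.7, 161.6 and 167.2 CPM in shNC and of 121.5, 138.1 and 142.4 CPM in sh1. Every sh1 library lay below every shNC library, though by little between shNC replicate 1 and sh1 replicate 3. The log2 fold change was -0.23 (standard error 0.051, 95% interval -0.33 to -0.12, adjusted p = 0.0031 from edgeR). On the FPKM scale, where libraries are scaled by their totals alone, the groups overlapped, with shNC replicate 1 at 15.7 FPKM and sh1 replicate 3 at 16.2 FPKM. GFPT1 was called under all 20 alternative settings, and its log2 fold change stayed between -0.25 and -0.18.

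GFPT2, the isoenzyme of more restricted tissue expression (ENSG00000131459, chromosome 5 from 180300698 to 180353336, minus strand), had values of 118.4, 135.2 and 159.4 CPM in shNC and of 110.6, 120.1 and 124.9 CPM in sh1. The shNC libraries were spread widely (coefficient of variation of CPM 11.4%, against 4.36% in sh1), and shNC replicates 1 and 5 lay inside the sh1 range. Its log2 fold change of -0.19 ± 0.065 (standard error; edgeR, adjusted p = 0.035) was close to the threshold. It was no longer called without shNC replicates 2, 3 or 4 or without any single sh1 library, where the adjusted p was 0.050 to 0.097 and the log2 fold change -0.20 to -0.13. It was also not called with library totals (adjusted p = 0.067 from edgeR), with the replicate number as a block (adjusted p = 0.069 from edgeR) or with limma on FPKM (adjusted p = 0.105 at either pseudocount). In annotated transcripts the longest exact stretch shared by GFPT1 and GFPT2 is 18 bases, against reads of 150 bases.

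GFPT2 made up 61.3% ± 2.26 of the summed GFPT1 and GFPT2 FPKM in shNC and 61.9% ± 2.25 in sh1 (SD over 6 libraries). This make-up depends on the gene lengths used. In counts the mean of GFPT1 was above that of GFPT2, 2776 against 2377 in shNC and 2031 against 1784 in sh1. The difference of 0.621 percentage points was smaller than the spread within either group (exact two-sided permutation test over libraries, p = 0.65, adjusted p = 0.65 over 2 shares). It ranged from -0.12 without sh1 replicate 1 to 1.30 without shNC replicate 4, and was also below 0 without shNC replicate 5 (-0.074).

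GNPNAT1, the acetyltransferase of the route (ENSG00000100522, chromosome 14 from 52775193 to 52791668, minus strand), showed the largest change of the 9 genes. Its lowest, median and highest values were 125.9, 134.1 and 138.1 CPM in shNC and 101.0, 108.1 and 117.8 CPM in sh1. The groups did not overlap in CPM or in FPKM (31.7 to 34.5 against 25.3 to 29.7). The log2 fold change was -0.29 (standard error 0.046, 95% interval -0.39 to -0.19, adjusted p = 0.00018 from edgeR), and all 20 alternatives called it, with log2 fold changes from -0.30 to -0.26. The antisense gene ENSG00000259049 shares 1426 exon bases with GNPNAT1 and had no count in any library. Since the library kit does not mark strand, this does not show that all reads of the shared bases came from GNPNAT1. For GFPT1, GNPNAT1 and UGDH, sh1 replicate 3, the library of lowest depth, was the highest of the sh1 libraries.

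The later steps of the route did not pass the test. PGM3 (ENSG00000013375, chromosome 6 from 83147324 to 83193936, minus strand) was at 77.1 to 85.0 CPM in shNC (median 82.7) and at 75.4 to 92.2 CPM in sh1 (median 81.2), with a log2 fold change of 0.01 (95% interval -0.10 to 0.12, adjusted p = 0.89 from edgeR). The groups overlapped, with sh1 replicates 3 and 6 above all shNC libraries and sh1 replicate 1 below them. UAP1 (ENSG00000117143, chromosome 1 from 162561722 to 162601240, plus strand) was at 242.3 to 310.3 CPM in shNC (median 263.8) and at 226.0 to 273.3 CPM in sh1 (median 263.0), with a log2 fold change of -0.07 (95% interval -0.21 to 0.075, adjusted p = 0.49 from edgeR). For PGM3 the lower bound lies above the fold changes of the 4 called genes, and for UAP1 it lies below those of UGDH and GFPT2. PGM3 shares 1546 exon bases with DOP1A on the opposite strand, which had a mean of 348.3 counts per library, against 1325 for PGM3. Since the library kit does not mark strand, reads of the pair cannot be told apart there.

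**Figure D3:**
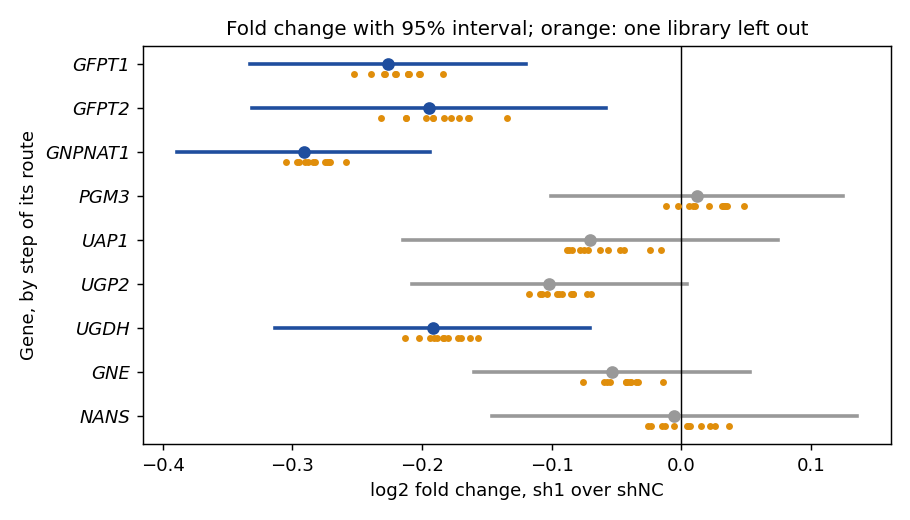
Log2 fold change, sh1 over shNC, of the 9 genes (large points) with the 95% interval (lines), blue where the adjusted p was under 0.05 and grey otherwise, with the 12 fits that each leave out 1 library in orange. GNPNAT1 lies lowest at -0.29, and the orange points of GFPT1, GFPT2, GNPNAT1 and UGDH all lie below 0. Those of UAP1, UGP2 and GNE, which were not called, also all lie below 0, and those of PGM3 and NANS lie on both sides.

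The relation between neighbouring enzymes, and between the isoenzymes GFPT2 and GFPT1, was described by the log2 ratio of their FPKM within each library. This ratio does not depend on the scaling between libraries. The 6 ratios were chosen after the values above had been seen and restate them within each library, so no test is given. PGM3 over GNPNAT1 was at -1.58 ± 0.077 in shNC and at -1.27 ± 0.045 in sh1 (log2 ratio, SD, n = 6 each), and the ranges were -1.69 to -1.45 and -1.35 to -1.23. This difference of 0.30 stayed between 0.28 and 0.33 with any library left out. The groups overlapped in the other 5 ratios. The difference was -0.07 for GNPNAT1 over GFPT1, -0.08 for UAP1 over PGM3, 0.04 for GFPT2 over GFPT1, -0.09 for UGDH over UGP2 and 0.05 for NANS over GNE.

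**Figure D4:**
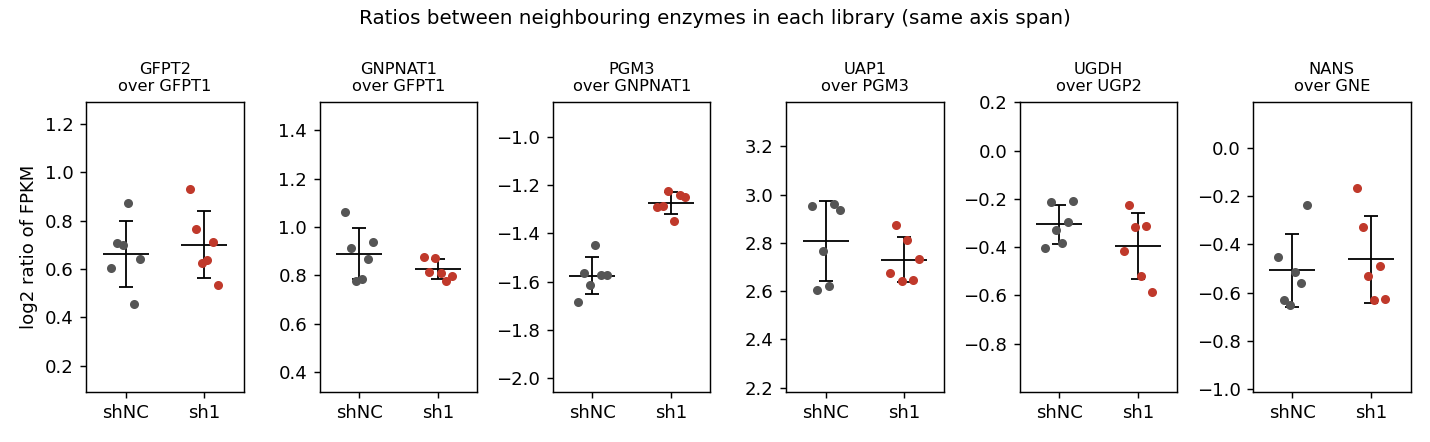
Log2 ratio of FPKM between neighbouring enzymes in each shNC (grey) and sh1 (red) library, with the mean and SD of each group (bars, n = 6), on axes of equal span. For PGM3 over GNPNAT1 the sh1 libraries lie between -1.35 and -1.23, all above the shNC libraries at -1.69 to -1.45, and in the other 5 panels the groups overlap.

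In the branch to UDP-glucuronate, UGDH fell, while UGP2 did not pass the test. UGDH, the dehydrogenase (ENSG00000109814, chromosome 4 from 39498755 to 39528311, minus strand), had a lowest, median and highest value of 44.7, 50.9 and 53.6 CPM in shNC and of 40.4, 44.2 and 47.4 CPM in sh1. Among the shNC libraries, replicate 4 alone lay inside the sh1 range. This was -0.19 ± 0.058 on the log2 scale (standard error; edgeR, adjusted p = 0.020). The call was lost without shNC replicate 2 (adjusted p = 0.068, log2 fold change -0.16) and without sh1 replicates 1, 4 or 6 (adjusted p = 0.053, 0.057 and 0.067, log2 fold change -0.17, -0.17 and -0.16). UGDH shares 513 exon bases with the antisense gene UGDH-AS1, which had a mean of 22.4 counts per library, against at least 538 for UGDH. Reads of this pair cannot be told apart in the shared bases.

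UGP2, which makes UDP-glucose (ENSG00000169764, chromosome 2 from 63840952 to 63891562, plus strand), was at 93.8 to 110.2 CPM in shNC (median 99.7) and at 86.8 to 98.6 CPM in sh1 (median 93.1). All 6 sh1 libraries lay below the shNC median, but 3 of them lay within the shNC range. The log2 fold change was -0.10 (95% interval -0.21 to 0.0044, adjusted p = 0.15 from edgeR). UGDH made up 44.7% ± 1.41 of the summed UGDH and UGP2 FPKM in shNC and 43.2% ± 2.32 in sh1 (SD, n = 6 each), a difference of -1.53 percentage points that was within the spread (exact permutation p = 0.18, adjusted p = 0.37 over 2 shares). The fold changes of UGDH and UGP2 were therefore not shown to differ.

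The sialic acid genes stayed close to their control levels. GNE, the epimerase and kinase that commits UDP-GlcNAc to sialic acid (ENSG00000159921, chromosome 9 from 36214441 to 36277042, minus strand), was at 62.5 to 70.0 CPM in shNC (median 68.2) and at 59.1 to 69.0 CPM in sh1 (median 65.2), with a log2 fold change of -0.05 (95% interval -0.16 to 0.05, adjusted p = 0.47 from edgeR). NANS, the synthase (ENSG00000095380, chromosome 9 from 98056732 to 98083077, plus strand), was at 37.1 to 44.02 CPM in shNC (median 39.1) and at 35.0 to 43.7 CPM in sh1 (median 38.7), with a log2 fold change of -0.01 (95% interval -0.15 to 0.14, adjusted p = 0.96 from edgeR). The groups overlapped across most of their ranges in both genes. NANS shares 422 exon bases with TRIM14 on the opposite strand, which had a mean of 700.5 counts per library, against 639.2 for NANS. Reads of this pair cannot be told apart in the shared bases.

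Of 50 genes of connected reactions in 6 groups, 48 were tested, 6 were higher, 7 were lower and 35 did not pass, with a median log2 fold change of -0.01. These counts are near the shares of all genes tested, 12.8% higher and 13.3% lower. Among the 7 genes that supply hexose phosphates, 2 were higher (28.6%, against 12.8% of all genes tested) and 1 was lower (14.3%, against 13.3%). The glucose transporter SLC2A1 rose from 243.5 ± 27.3 to 349.4 ± 22.8 CPM (SD, n = 6 each), and the isomerase GPI, which makes the fructose phosphate that GFPT1 and GFPT2 use, rose from 335.5 ± 28.95 to 394.6 ± 18.7 CPM. Hexokinase HK1 fell from 367.7 ± 17.4 to 292.7 ± 16.01 CPM. The log2 fold changes were 0.52, 0.23 and -0.33, and all 20 alternatives called these 3 genes.

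Among the genes of amino sugar salvage and breakdown, 3 of 6 tested were lower, where 13.3% of all genes tested were, and none was higher by edgeR, DESeq2 or limma (also 0 at an unadjusted p under 0.05 in edgeR), with a median log2 fold change of -0.18. OGA, which removes O-GlcNAc from proteins, was at 312.9 ± 18.3 CPM in shNC and at 272.1 ± 15.04 CPM in sh1 (SD over 6 libraries) and fell by 0.20 on the log2 scale (edgeR, adjusted p = 0.0083), and was called under all 20 alternatives. GNPDA1 (-0.18) and GNPDA2 (-0.19), the deaminases that return glucosamine phosphate to glycolysis, were close to the threshold and were called under 9 and 5 of 20 alternatives. OGA alone was left without shNC replicates 2, 3 or 5 and without sh1 replicates 1, 5 or 6, which makes the count 1, as did library totals and limma. OGT, which attaches O-GlcNAc, was at 524.3 ± 48.5 CPM in shNC and at 544.6 ± 46.8 CPM in sh1 and did not pass (log2 fold change 0.05, 95% interval -0.09 to 0.20).

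Of the 9 genes that use UDP-GlcNAc, 2 were lower (22.2%, against 13.3% of all genes tested) and 1 was higher (11.1%, against 12.8%). MGAT1, the transferase that opens the way to complex N-glycans, had a mean of 90.1 ± 5.04 CPM in shNC and fell to 58.15 ± 5.55 CPM in sh1 (SD over 6 libraries), which is -0.63 ± 0.062 on the log2 scale (standard error; edgeR, adjusted p = 1.3e-06). This was the largest change of the 48 connected genes tested, and the sh1 libraries (51.7 to 67.0) lay below all shNC libraries (86.0 to 99.7). The Golgi transporter of UDP-GlcNAc, SLC35A3, fell (-0.27), and MGAT5, a branching transferase of N-glycans, rose (0.24). Of the 8 tested genes that use UDP-glucose or UDP-glucuronate, 2 were higher (25.0%, against 12.8% of all genes tested) and 1 was lower (12.5%, against 13.3%). UXS1, which converts the UDP-glucuronate made by UGDH into UDP-xylose, fell from 47.0 ± 3.19 CPM in shNC to 33.3 ± 1.21 in sh1, or by 0.50 on the log2 scale (edgeR, adjusted p = 7.0e-06). The glucosylceramide synthase UGCG (0.32) and the glycogen synthase GYS1 (0.40) rose. Every gene named with a change in this paragraph was called under all 20 alternatives.

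The 4 genes of sialic acid activation and transport did not pass (0 in either direction from edgeR, also at an unadjusted p under 0.05 and with DESeq2 and limma), with CMAS, the most abundant, at 68.3 ± 5.18 CPM in shNC and at 66.8 ± 4.81 in sh1 (SD, n = 6 each). Of 14 other nucleotide sugar enzymes, 13 of the galactose, mannose and fucose routes and the UAP1 paralog UAP1L1, 1 was higher (7.14%, against 12.8% of all genes tested) and 13 did not pass. This was the mannose phosphate isomerase MPI (0.26, adjusted p = 0.036 from edgeR), which was not called without shNC replicates 2, 5 or 6 or without sh1 replicate 1 (adjusted p of MPI up to 0.074).

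**Figure D5:**
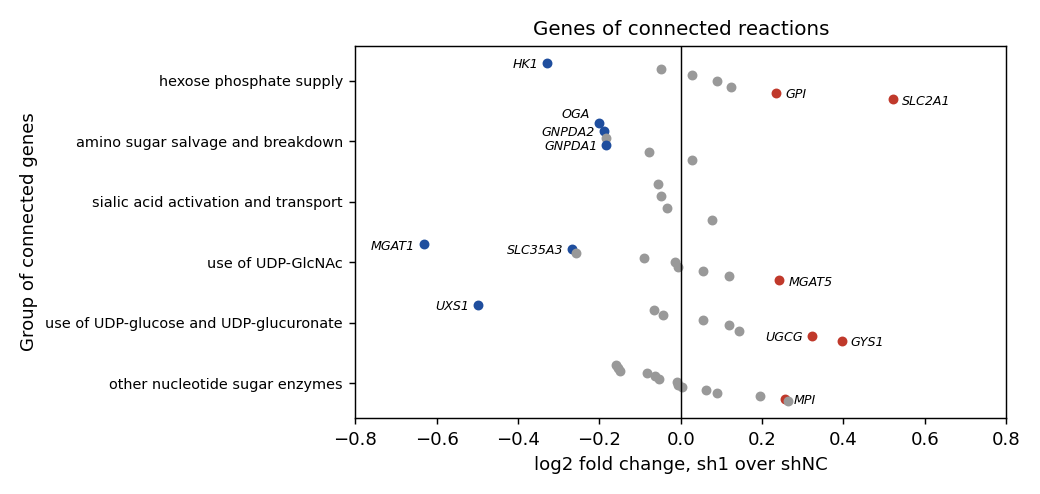
Log2 fold change, sh1 over shNC, of the 48 tested genes of connected reactions by group. Red points were higher and blue points lower at an adjusted p under 0.05, with the gene named, and grey points did not pass. MGAT1 at -0.63 and SLC2A1 at 0.52 are the outermost points.

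For GFPT1 and GFPT2, the 3 genes that deviated most like each from library to library within the groups were listed. Such short lists do not show whether GFPT1 and GFPT2 vary together. Among 12580 genes with a symbol and a mean log2 CPM of at least 1, those whose deviations from their group means over the 12 libraries were most like those of GFPT1 were USP47 (Pearson r = 0.97, Spearman rho = 0.92), TNKS2 (0.96 and 0.80) and KMT5B (0.95 and 0.80). For GFPT2 they were ADM2 (0.96 and 0.93), TGIF1 (0.96 and 0.94) and TPCN1 (0.94 and 0.90). These are the highest values of a search over all those genes in 12 libraries, and libraries share depth and preparation, so they are a description without a test.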

How the data were processed

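Polyadenylated RNA of SJSA-1 cells was sequenced as read pairs. The authors removed adapters and low-quality reads, aligned to GRCh38 with HISAT2 and counted with featureCounts (versions not given in the sources used here). The deposited tables hold raw counts per gene, FPKM values that the authors computed from the counts, and counts divided by size factors, which were not used. Identifiers were matched to GENCODE 44 (58207 of 58676), whose GRCh38 coordinates are given. The 572 entries without an Ensembl identifier stayed in the totals.

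Counts were fitted over all genes with edgeR 4.0.16 (TMM, filterByExpr, quasi-likelihood test, Benjamini-Hochberg adjustment, R 4.3.3), after a check on simulated counts. The standard error of a log2 fold change was its size over the root of the F statistic. Shares per library were tested with exact two-sided permutation tests (scipy 1.17.1). Alternatives were RLE factors, library totals, no filter, at least 10 counts in every library, DESeq2 1.42.0, limma 3.58.1 on log2(FPKM + 1) and log2(FPKM + 0.1), a replicate block and leaving out each library. The depth was 11239638 counts or more per library, and precision is limited by the spread between 6 libraries of a group, which includes counting error.

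The 9 genes and the lists were chosen with earlier results of these data known. Named beside the 9 were RUNX2, up to 4 called genes with the smallest p and the most abundant gene of each connected list, and the 3 genes most like GFPT1 and GFPT2. One gene that this rule names is not reported here. Promoter sequences are from RefSeq (GRCh38.p14).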

Additional observations from a re-analysis of the deposited data

Results flagged for a closer look

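Single libraries stood apart from the rest of their group for 2 genes, judged by the distance to the closest library relative to the whole range (Dixon's criterion). About 1 group in 20 meets it by chance, or 1.1 of the 22 groups examined. UGDH was at 44.7 CPM in shNC replicate 4, against 50.4 to 53.6 in the other shNC libraries. GNE was at 62.5 CPM in shNC replicate 6, against 67.4 to 70.0 in the other shNC libraries.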

How the results depend on the processing

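Of the 9 genes, 4 were called lower and 0 higher. The number lower was 3 with library totals, without a filter, with limma on either FPKM scale and with the replicate block, and 4 with RLE factors, DESeq2 and the stricter filter. It ranged from 2 to 4 when 1 library was left out, with 2 (GFPT1 and GNPNAT1) without shNC replicate 2 or without sh1 replicates 1, 4 or 6. The number higher stayed 0 in these settings. GFPT1 and GNPNAT1 were called in all 20 alternatives, UGDH in 15 and GFPT2 in 7, with negative fold changes throughout (UGDH had an adjusted p of 0.053 from edgeR without a filter), and the cause of the lost calls was not tested. With the replicate number as a block, 1680 genes were higher and 1700 lower over all genes, against 2108 and 2194, and GFPT2 was not called (-0.19, adjusted p = 0.069 from edgeR). Same-numbered libraries did not deviate together (correlations of -0.16 to 0.033), so the numbers were not taken as pairs. The connected genes called stayed between 5 and 8 in each direction. The shares of GFPT2 and UGDH and RUNX2 kept their side of the threshold in every setting run. The 9 genes had 447 counts or more in every library, and the part of counting error in their spread was not tested.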
